A study of Mus musculus with 6 samples.

Results

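Unstimulated N18-Fms cells were described gene by gene from the 2 arrays of cells that received no CSF-1, and the genes counted as expressed were those whose brightest probe was well above background on both arrays. Of 36163 genes named on the array, 36120 had a usable probe, and 23126 of these (64.0%) met that rule. A further 10380 genes (28.7%) had no probe well above background on either array and are called silent here, which means not detectable with these probes rather than absent. The remaining 2614 genes lay in between, with at least 1 probe above background on 1 array or a dimmer probe above it. The gene lists described are of lineage, receptor, matrix and immune genes, and together they held 1030 different genes with a usable probe, of which 639 (62.0%) were above background and 320 were silent.

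N18-Fms cells (N18-CFMS in the labels) descend from C2H, a clonal line from a prostate tumour of the TRAMP mouse, in which the SV40 T antigens are expressed from a probasin promoter in prostate epithelium. N18 is 1 luciferase-transfected, neomycin-resistant clone of C2H, and N18-Fms is a population made from it by retroviral transduction of wild-type murine c-fms cDNA followed by 2 rounds of sorting for surface CSF-1R, so every group carried the luciferase and c-fms transgenes. Cells were grown in medium with fetal bovine serum and dihydrotestosterone. The 2 control arrays are labelled as vehicle-treated whereas the protocol calls the cells unstimulated, and the other 4 arrays are from N18-Fms cells given recombinant mouse CSF-1 (100 ng/mL), with 2 arrays after 24 h and 2 after 48 h by the labels. The methods give shorter times of stimulation than the labels, and the times below are those of the labels. No array of untransduced N18 or C2H cells was analysed here. The methods state that RNA came from 2 independent experiments, and p-values below measure only the spread between these arrays.

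CSF-1R is a receptor tyrosine kinase of class III, the family that also holds Kit, Flt3 and the PDGF receptors, and it is activated by CSF-1 or interleukin-34. It is best known as the growth and survival receptor of monocytes, macrophages and osteoclasts. Prostate epithelium has luminal and basal cells rich in keratins and depends on androgen, whereas the stroma around it has fibroblasts and smooth muscle that lay down collagens, and carcinoma cells in culture can hold genes of both kinds.

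Signal was the background-subtracted spot intensity on a log2 scale minus the 75th percentile of the array, so a value of 0 is a spot at that percentile. Signal percentile is the share of the 36120 genes with a lower mean on the 2 arrays. It ranks probe signals, and since probes differ in how well they hybridise it does not set the transcript level of one gene against that of another. The 2 unstimulated arrays had 63.8% and 61.3% of 59305 spots well above background, within the 58.7% to 72.0% of all 6 arrays, and 0 spots were saturated. Over the genes above background on both, the log2 difference between the arrays had a standard deviation of 0.34, 236 genes (1.02%) differed by more than 1, and Pearson's r across genes, which are not independent replicates, was 0.9943. Detection was loose at the bottom of the scale: the dimmest gene above background had a mean of -4.63 and the brightest silent gene -4.34, so both classes overlap between percentiles 31.5 and 35.1.

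A list of 24 widely expressed genes and one of 36 genes restricted to organs other than the prostate show what the rule picks up. All 24 widely expressed genes were above background, at a median percentile of 98.9; Actb, which encodes beta-actin, had signals of 9.56 and 9.48, and those of Gapdh, a glycolytic enzyme, were 9.47 and 9.50. Of the 36 genes of other organs, 16 (44.4%) were above background and 13 silent, at a median percentile of 35.3. Alb, encoding albumin, was silent at -6.78 and -6.50, whereas Ins2, an insulin gene, had signals of 0.17 and 0.11. Apoa2, a liver apolipoprotein, reached 7.92 with 1 probe and -2.86 with the other. Presence above background at a low percentile, or by 1 of several probes, therefore separates these cells poorly from cells that should lack the gene. Signals below are those of a gene's brightest probe, and percentiles and values of other probes are given for some genes only. Over all genes with several probes, 3345 of 10347 had 1 probe above background on both arrays and another above it on neither.

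The brightest genes with a RefSeq name by mean signal included Actb, Gapdh, the peptidyl-prolyl isomerase Ppia (signals of 9.55 and 9.39) and the galectin Lgals1 (9.44 and 9.31). The other genes of the top 10 were Exosc2, Gm5921, Rn28s1, which is the 28S ribosomal RNA, Milr1, 2610028H24Rik and Zfp628. Among the lists, all 21 collagen cross-linking and folding enzymes were above background, as were 81.2% of the mesenchymal genes and of the nuclear receptors, beside 64.0% of all genes. The lists with the smallest shares were the chemokine receptors with 26.1%, the endothelial genes with 35.0% and the interferons and interleukins with 36.4%.

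Mesenchymal genes stood at high signal and most defining genes of simple epithelium were not detected. Of 32 mesenchymal and fibroblast genes, 26 were above background, at a median percentile of 77.0 for the whole list. Vim, which encodes the intermediate filament vimentin, had signals of 8.31 and 8.36 (percentile 99.5). Cdh2, the N-cadherin gene, had 4.37 and 4.56 (percentile 93.3), and S100a4, a calcium-binding protein of fibroblasts, had 8.06 and 7.98. These 3 genes differed by less than 0.34 between the arrays. The transcription factors of the list that repress epithelial genes were all above background: Zeb1 had signals of 1.20 and 1.74, Snai2 had 2.76 and 2.72 and Twist2 had 3.77 and 4.07. Pdgfra, the PDGF receptor alpha of fibroblasts, was near background at -3.30 and -2.73 (percentile 48.3), and the fibroblast protease gene Fap was silent.

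Of 30 simple epithelial genes, 14 (46.7%) were above background and 15 silent, at a median percentile of 32.6. Cdh1, which encodes the adhesion protein E-cadherin, was silent at -6.20 and -6.41 (percentile 11.8). Epcam, an epithelial adhesion molecule, was silent at -4.55 and -5.20, and Krt18, a keratin of simple epithelium, was silent at -5.49 and -4.59. Krt8, the partner keratin of Krt18, was above background at -3.04 and -2.37 (percentile 50.9), so 1 of the 4 defining genes was detected. The brightest members were Ovol2, a transcription factor that keeps epithelial identity (signals of 3.65 and 3.63, percentile 90.3), the splicing regulator Esrp1 (2.71 and 1.63, with a mean of 2.17 by 1 probe and -2.80 by the other) and the claudin Cldn7 (-0.56 and -0.71). The other 3 defining genes were not detectable by the rule used here. In bulk RNA, fewer cells that express a gene and less RNA of it per cell cannot be told apart.

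The letters CAGGTG, an E box that Zeb and Snail proteins are known to bind, were looked for on both strands in the 250 bases before each start site of the RefSeq promoters of build GRCm38.p6, since promoters of this list are textbook targets of those repressors. Of 18 list members with a promoter in the table, 11 (61.1%) held the letters, beside 17.2% of all 32851 promoters and 1 of 18 mesenchymal genes. A list gene counted if any of its promoters held the letters, whereas the share of all promoters counts each promoter. That difference can raise the share of a list. Within 100 bases, the counts were 8 of 18, 7.03% of all promoters and 0 of 18. The letters stood before 6 of 11 silent members and 5 of 7 members above background, a difference that was not tested in so few genes, and a match is a description of the sequence only. The promoters of the silent genes Krt18 (chr15:102027966-102028215, plus strand) and Epcam (chr17:87635729-87635978, plus strand), of Krt8 (chr15:102004343-102004592, minus strand) and, for contrast, of the mesenchymal gene Vim (chr2:13574061-13574310, plus strand) are shown 5′ to 3′ on the strand of the gene, ending 1 base before the start site. Capitals mark CAGGTG or its complement CACCTG, and Vim has none.
Krt18: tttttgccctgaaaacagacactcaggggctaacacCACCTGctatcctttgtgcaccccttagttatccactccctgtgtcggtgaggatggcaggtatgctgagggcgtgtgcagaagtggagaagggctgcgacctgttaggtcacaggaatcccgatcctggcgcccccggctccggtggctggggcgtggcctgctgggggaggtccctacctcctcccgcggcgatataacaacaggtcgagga
Epcam: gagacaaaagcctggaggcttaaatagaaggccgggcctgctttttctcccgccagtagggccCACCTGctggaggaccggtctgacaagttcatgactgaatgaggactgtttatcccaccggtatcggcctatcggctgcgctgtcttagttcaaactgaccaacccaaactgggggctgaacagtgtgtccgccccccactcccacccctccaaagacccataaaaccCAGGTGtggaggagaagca
Krt8: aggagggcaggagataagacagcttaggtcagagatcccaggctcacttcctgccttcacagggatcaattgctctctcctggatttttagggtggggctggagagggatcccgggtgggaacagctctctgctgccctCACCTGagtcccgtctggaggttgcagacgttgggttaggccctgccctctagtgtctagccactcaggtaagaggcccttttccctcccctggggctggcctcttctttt
Vim: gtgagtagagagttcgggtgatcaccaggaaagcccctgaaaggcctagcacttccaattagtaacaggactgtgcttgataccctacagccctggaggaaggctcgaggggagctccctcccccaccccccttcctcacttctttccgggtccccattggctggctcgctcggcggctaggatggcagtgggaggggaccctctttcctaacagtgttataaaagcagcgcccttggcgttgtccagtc

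Basal epithelial genes were a mixture, with 10 of 18 (55.6%) above background and 6 (33.3%) silent. The shares of all genes were 64.0% and 28.7%. The basal keratins Krt5 and Krt14 were low, with signals of -2.90 and -3.0 and of -3.19 and -3.50. Trp63, which encodes the basal cell regulator p63, stood at percentile 91.0 by 1 of its 4 probes, with signals of 3.81 and 3.77, whereas the other 3 probes had means of -5.50, -6.31 and -7.05 and were above background on neither array. The P-cadherin gene Cdh3 had signals of 0.99 and 0.77. Of the defining basal genes, each was therefore either near background or above it by 1 probe alone.

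Prostate genes were detected about as often as genes in general, with several well above the median gene and others silent or near background. Hoxb13, a homeobox gene of prostate, was silent at -5.19 and -5.64. Pbsn, the androgen-regulated secretory gene probasin, was well above background on 1 array only, at -4.56 and -3.09. Of the 31 genes of the list, 19 (61.3%) were above background, beside 64.0% of all genes. The 11 silent members (35.5%, beside 28.7% of all genes) included Foxa1, a pioneer transcription factor of prostate epithelium. Fkbp5, a chaperone gene that androgens and glucocorticoids induce, had signals of 3.83 and 4.05 (percentile 91.6), and Steap1, a metalloreductase of prostate tumours, had 4.79 and 4.69 (percentile 94.1). Slc45a3, a prostate transporter gene, ranked highest by its brighter probe with a mean of 6.70, but its other probe had -1.61.

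Neuroendocrine genes, which mark a tumour type that TRAMP mice can develop, were above background in 10 of 20 cases. Syp, which encodes synaptophysin, had signals of 4.84 and 4.70 (percentile 94.2) from its only probe, and Ncam1, a neural adhesion molecule, had 3.64 and 3.88. Chga, the chromogranin A gene, was close to the limit of detection at -3.99 and -4.28, and Chgb, Insm1 and Neurod1 were silent. The list as a whole had a median percentile of 35.7, near the 35.3 of the genes of other organs.

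Smooth muscle genes were detected in 15 of 20 cases, at a median percentile of 74.3. Acta2, which encodes smooth muscle alpha-actin, had signals of 3.88 and 4.61 (percentile 92.7). The cytoskeletal genes Csrp1 and Smtn had signals of 5.39 and 5.43 and of 6.58 and 6.24. The second probe of Smtn had a mean of 0.33, beside 6.41 for the first. Calponin 1 (Cnn1), an actin-binding protein of contractile smooth muscle, had -1.10 and -0.87. Myh11, the smooth muscle myosin heavy chain, was silent at -5.65 and -6.92, and Des, encoding desmin, lay in between at -4.62 and -4.62.

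Of the defining genes of endothelium, Pecam1 was above background at -1.72 and -2.04 whereas Cdh5 and Tek lay in between, and 11 of 20 members were silent. The brightest member was Kdr, a VEGF receptor, at 4.64 and 4.20 (percentile 93.2). Egfl7, a secreted endothelial factor, had 1.18 and 0.77, and Flt1, another VEGF receptor, had -1.26 and -1.29.

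Macrophage genes other than the transduced receptor were mostly dim. Of 36 members, 16 were above background, 12 silent and 8 in between, at a median percentile of 33.2. Spi1, which encodes PU.1, the transcription factor that directs myeloid fate, was silent at -4.85 and -5.58. Ptprc, the CD45 gene of all leukocytes, had -4.01 and -3.63 (percentile 41.0). Adgre1, which encodes F4/80, had -2.90 and -2.81, and Cd68, a lysosomal protein of macrophages, lay in between at -4.54 and -4.29. Lyz2, Laptm5, Aif1 and C1qc, abundant transcripts of macrophages, were silent. The integrin gene Itgam was an exception at 5.40 and 5.22, yet its other 2 probes had means of -1.51 and -2.70. Fcer1g, an Fc receptor subunit, had 2.13 and 1.84 (percentile 82.0). Leaving out Csf1r, 19 of 35 macrophage genes were above background on each unstimulated array, beside 15 to 25 on the stimulated arrays, and their linear signals, each divided by the array's 75th percentile, summed to 52.0 and 46.7 unstimulated and to 36.2 to 48.5 stimulated. Without Itgam the sums were 9.81 and 9.27 unstimulated and 13.8 to 15.2 stimulated.

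Lymphoid, erythroid and granulocyte genes were above background in 11 of 24 cases. Elane, encoding neutrophil elastase, had signals of 5.98 and 5.91 from 1 probe. Cd4, a T cell co-receptor, had 4.01 and 3.69 by 1 probe and a mean of -4.24 by the other. Nkg7, a gene of cytotoxic granules, had 2.56 and 2.47, and Cd3e, a subunit of the T cell receptor complex, had 2.67 and 2.25. Other members of the same cells, among them Cd3d, Cd3g, Cd8a, Ms4a1, Mpo and S100a8, were silent. The globin gene Hba-a1 was low, at -2.02 and -1.70. No blood lineage therefore had its defining genes detected together.

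**Figure D1:**
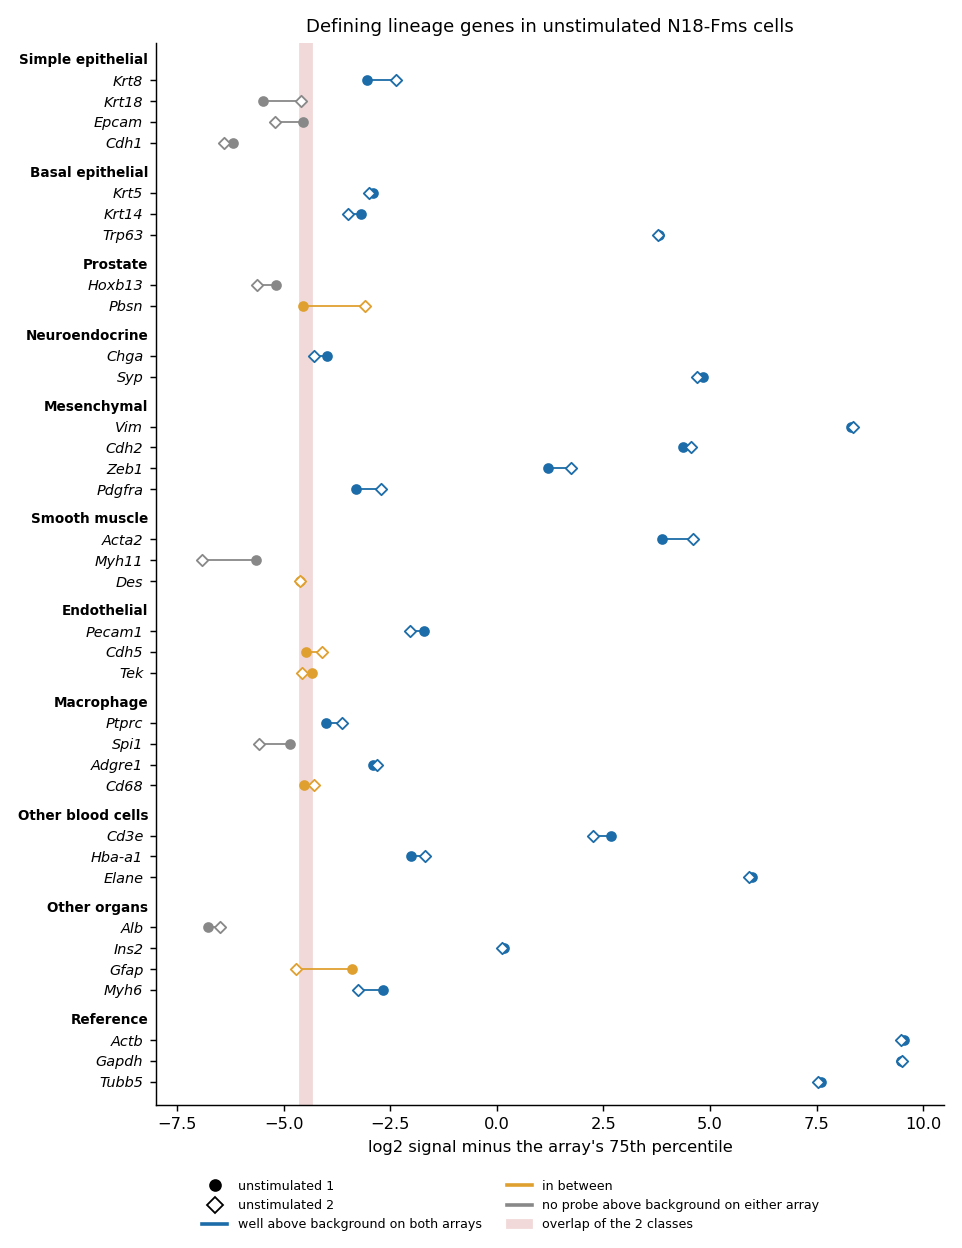
Signal of defining genes of each lineage (horizontal axis, log2 signal minus the array's 75th percentile) on unstimulated array 1 (filled circles) and array 2 (open diamonds); colour gives the detection class and the shaded band the range in which both classes occur. Vim stands at 8.31 and 8.36, whereas Cdh1 (-6.20 and -6.41) and Spi1 (-4.85 and -5.58) lie left of the band.

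Of the 5 class III receptor tyrosine kinases, 4 were above background. Csf1r, the transduced receptor, had signals of 4.88 and 5.13 (percentile 94.8) by the brightest of 3 probes, which had means of 5.00, 4.75 and 3.14. Whether each probe lies within the transduced c-fms cDNA was not tested, so signal from the cDNA and from the gene of the cell was not separated. Kit, the stem cell factor receptor, was silent at -5.61 and -6.90, and Flt3, a receptor of blood progenitors, was dim at -2.53 and -3.85. Pdgfrb, the PDGF receptor beta, had 1.25 and 1.83 (percentile 79.6). Both ligands of CSF-1R were above background before any was added. Csf1 had signals of 4.08 and 4.28 (percentile 92.4), with means of 4.18, 3.58 and 3.24 by its 3 probes, and Il34, encoding interleukin-34, had 0.25 and 0.21 (percentile 71.2).

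Of 53 other receptor tyrosine kinases, 35 were above background and 16 silent. The brightest were the ephrin receptor Ephb3 (4.89 and 4.89), the Gas6 receptor Axl (4.70 and 4.70) and Epha2 (4.39 and 4.51). Fgfr1, a receptor of fibroblast growth factors, had 3.62 and 4.0 (percentile 91.0), and Igf1r, the receptor of insulin-like growth factors, had 1.57 and 1.80. Erbb2 had 0.25 and 0.31, Met, the receptor of hepatocyte growth factor, had 0.35 and 0.15, and Egfr, the EGF receptor, was dimmer at -2.75 and -1.83 (percentile 54.2). Erbb4, Ret, Alk, Ros1 and Musk were silent. Among 58 ligands of such receptors, 43 were above background. Signals were 3.87 and 4.0 for Fgf7, 3.91 and 3.74 for Igf1 and 0.20 and -0.01 for the Kit ligand gene Kitl. Dimmer probes of Igf1 had means that included -0.68, -0.87 and -3.04. Hgf, the ligand of Met, was silent at -6.93 and -6.90 (percentile 2.12), and so was Egf. In these signals Kitl was thus present without Kit, and Met without Hgf.

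Receptors of interferon were all detected except that of interferon lambda. Ifnar1 and Ifnar2, the subunits of the receptor of interferons alpha and beta, had signals of 0.06 and 0.04 and of 1.28 and 1.34. Ifngr1, a subunit of the interferon gamma receptor, had 1.90 and 1.90, and Ifnlr1 was silent. The shared subunit of the interleukin-6 family, Il6st, had 1.17 and 1.39. Of all 45 interferon and cytokine receptors, 32 were above background, with the highest signal for Csf3r, the receptor of granulocyte CSF, at 6.32 and 6.02 (percentile 97.1) by its only probe. The cytokine receptor-like gene Crlf3 had 3.28 and 3.25 and the leptin receptor Lepr had 3.51 and 2.81. The common gamma chain Il2rg, the lymphocyte receptor Il7r and Il2ra were silent.

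Of 48 receptors of the interleukin-1, interleukin-17, TNF and Toll families, 29 were above background. Tnfrsf12a, the receptor of TWEAK, had 5.97 and 6.05 (percentile 96.8), Il17rc, a subunit of the interleukin-17 receptor, had 4.04 and 3.88, and Tnfrsf1a, the main TNF receptor, had 2.85 and 3.0. Il1r1, the interleukin-1 receptor, had 0.51 and 0.62. The endotoxin receptor Tlr4 had 0.11 and 0.19, and Tlr7, which senses single-stranded RNA, had 3.72 and 3.57, whereas Tlr3, which senses double-stranded RNA, was silent at -6.59 and -6.21. Receptors of the TGF-beta family were above background in 11 of 14 cases, with signals of 0.84 and 1.02 for Tgfbr1, 2.58 and 2.73 for Tgfbr2, 3.21 and 3.43 for the activin receptor Acvr1 and 2.15 and 2.17 for the BMP receptor Bmpr1a.

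Nuclear receptors were above background in 39 of 48 cases. Nr3c1, the glucocorticoid receptor, had signals of 3.09 and 3.22 (percentile 88.1) and Rarg, a retinoic acid receptor, had 3.86 and 3.95 (percentile 91.4). Nr2f6, an orphan receptor, had 4.46 and 4.55 and the retinoid X receptor Rxrb had 4.40 and 4.45. Rxrg had 4.61 and 4.56 by 1 probe and a mean of -6.06 by another that was above background on neither array. Esr1, the estrogen receptor alpha, was at the limit of detection at -4.04 and -4.31, and Pgr, the progesterone receptor, was silent.

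Chemokine receptors were the least detected list, with 6 of 23 above background and 12 silent. Cxcr4 and Ackr3, the receptors of Cxcl12, were silent at -5.24 and -6.90 and at -6.69 and -6.67, and Ccr2, the receptor of Ccl2, was silent at -6.18 and -5.37. The brightest was Ccr9, at 2.81 and 1.81, followed by Ccr8 at -1.01 and -0.91 and Ccrl2 at -1.75 and -1.87. The other probes of Ccr9 and Ccr8 had means of -6.615 and -6.80 and were above background on neither array. Of 26 integrins, 17 were above background. Itgb1, the beta 1 subunit shared by most matrix receptors, had 3.08 and 3.28 (percentile 88.2). The fibronectin receptor subunits Itga5 and Itgav had 1.43 and 1.73 and 1.62 and 1.91, the laminin receptor subunit Itga6 had 4.18 and 4.24, and Itgb5 had 4.31 and 4.71. Itgb3, Itgb6 and Itga4 were silent.

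**Figure D2:**
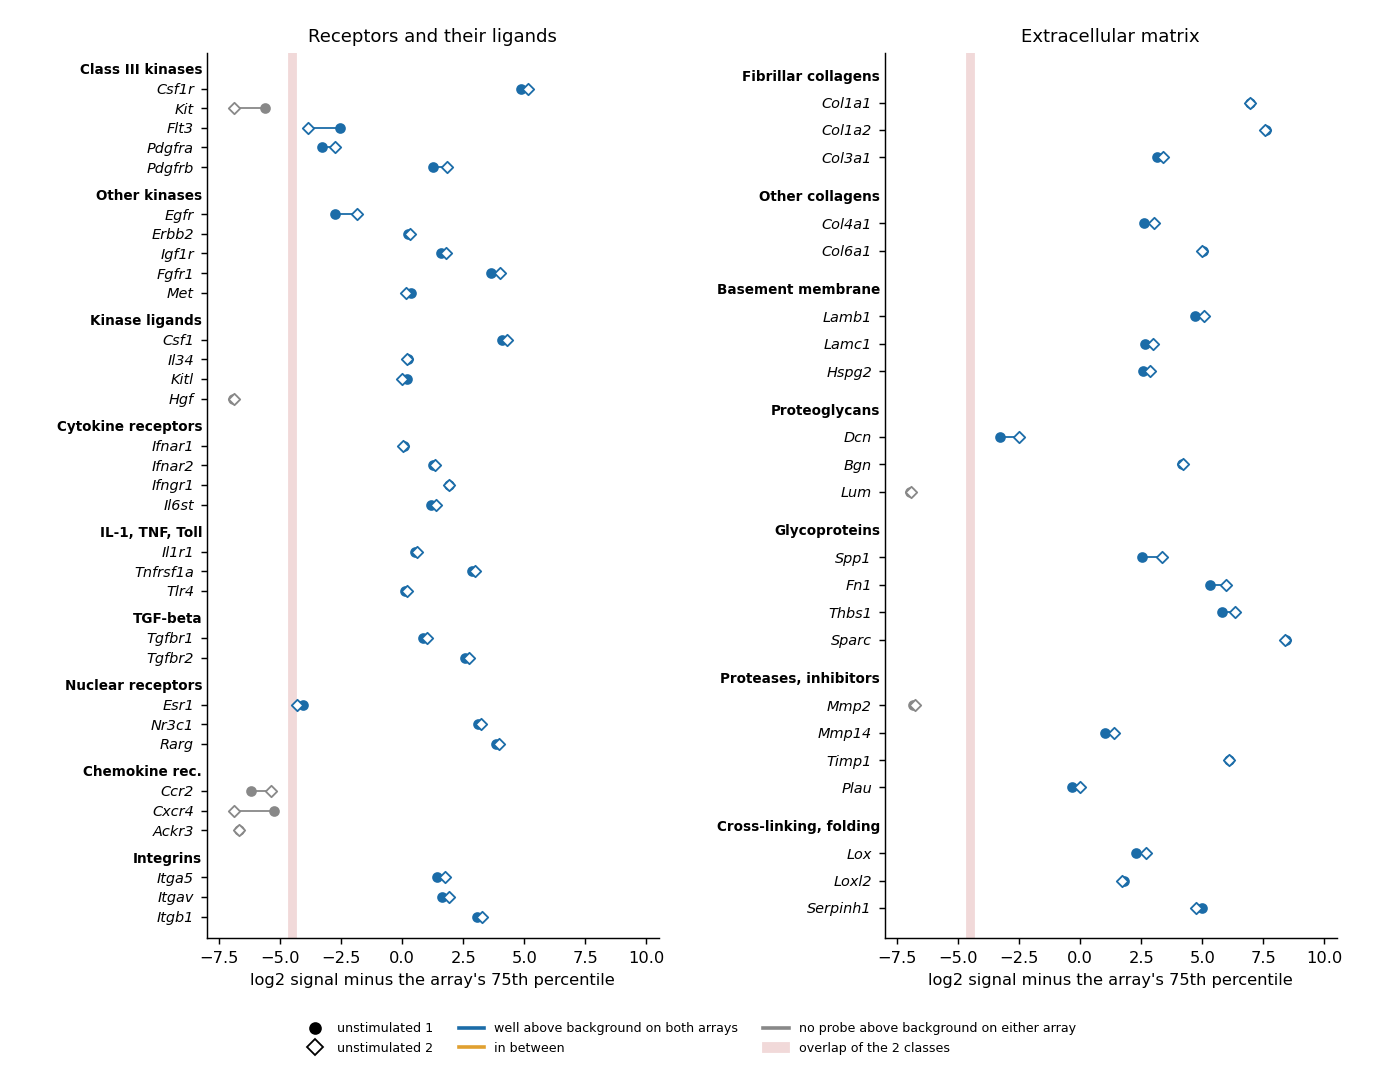
Signal of defining receptor and ligand genes (left) and extracellular matrix genes (right) on unstimulated array 1 (filled circles) and array 2 (open diamonds), as log2 signal minus the array's 75th percentile; colour gives the detection class and the shaded band the range in which both classes occur. Csf1r (4.88 and 5.13) and Csf1 (4.08 and 4.28) lie far right of the band, and Kit, Hgf, the 3 chemokine receptors, Lum and Mmp2 lie left of it.

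Of all 221 matrix genes 69.2% were above background, beside 69.1% of the protein-coding genes named in RefSeq, and type I collagen and the glycoprotein Sparc were among the brightest. Of 11 fibrillar collagens 8 were above background and 2 silent. Col1a1 and Col1a2, which encode the chains of type I collagen, had signals of 6.95 and 6.97 and of 7.63 and 7.58 (percentiles 98.2 and 98.9), and Col3a1, the type III chain, had 3.13 and 3.38. The cartilage collagen Col2a1 was silent. Of 31 other collagens, 17 were above background. Among them were the basement membrane chains Col4a1 (2.61 and 3.01), Col4a2 (2.64 and 3.14) and Col4a6 (3.81 and 3.56). The microfibrillar chain Col6a1 was another (5.04 and 4.99, percentile 94.8). The other probe of Col4a6 had a mean of -4.81 and was above background on neither array.

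The 21 genes for cross-linking and folding of collagen were the only matrix list with every member above background. Pcolce, an enhancer of procollagen cleavage, had signals of 8.18 and 8.21 (percentile 99.4). P4hb, a subunit of prolyl hydroxylase, had 5.10 and 5.17 and Serpinh1, the collagen chaperone HSP47, had 4.98 and 4.76. The lysyl oxidases Lox and Loxl2 had 2.29 and 2.69 and 1.78 and 1.71.

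Of 23 basement membrane genes, 17 were above background. The laminin chains Lamb1 and Lamc1 had signals of 4.69 and 5.07 and of 2.65 and 2.99, nidogen 1 (Nid1) had 4.35 and 4.55, and perlecan (Hspg2) had 2.59 and 2.84. Each of these stood at percentile 85.9 or higher. The laminin alpha chains Lama1 and Lama4 and the second nidogen, Nid2, were silent, while Lama3 and Lama5 had -0.09 and -0.45 and 0.42 and 0.94.

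Proteoglycans were above background in 23 of 35 cases. Vcan, encoding versican, had 4.75 and 4.54, the small leucine-rich proteoglycan Bgn had 4.17 and 4.19 and the glypican Gpc1 had 3.91 and 4.09. Dcn, encoding decorin, was dim at -3.27 and -2.50, and Lum, encoding lumican, was silent at -6.95 and -6.91 (percentile 1.87), both being abundant transcripts of tissue fibroblasts. Of 57 matricellular and fibre glycoproteins, 42 were above background. Sparc, a collagen-binding glycoprotein, had 8.43 and 8.40 (percentile 99.6), Fbln2 had 7.42 and 7.58, Thbs1, encoding thrombospondin 1, had 5.80 and 6.32 and Fn1, encoding fibronectin, had 5.33 and 5.95. Spp1, which encodes osteopontin, had 2.55 and 3.36 (percentile 87.1), a difference of 0.81 between the arrays.

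Among 44 matrix proteases and inhibitors, 26 were above background and the inhibitors Timp2 and Timp1 held the highest percentiles. These inhibitors of metalloproteinases had signals of 7.13 and 7.19 for Timp2 and 6.07 and 6.10 for Timp1. Bmp1, the procollagen C-proteinase, had 5.59 and 5.40. Mmp14, a membrane-bound metalloproteinase, had 1.02 and 1.38 and the plasminogen activator Plau had -0.35 and 0.00. Mmp2, the gelatinase that Mmp14 activates, was silent at -6.83 and -6.77 (percentile 4.54), as were Mmp9 and Mmp7.

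Genes for interferons and interleukins were mostly silent, and genes for sensing were detected about as often as protein-coding genes in general. Above background were 36.4% of interferons and interleukins, 72.4% of nucleic acid sensors and adaptors and 80.0% of IRF, STAT and JAK genes. The shares were 64.0% for all genes and 69.1% for protein-coding genes named in RefSeq. Of 55 interferons and interleukins, 20 were above background and 31 silent. Ifnb1 and Ifng, encoding interferons beta and gamma, were silent at -5.36 and -6.64 and at -5.53 and -5.59, as were Il1b at -6.45 and -6.50, Il6 at -6.86 and -5.44 and Tnf. The brightest member was the alarmin Il33 at 0.52 and 1.04 (percentile 74.8), followed by Il27 (0.24 and 0.20) and Il17d (-0.03 and -0.51).

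Chemokines were above background in 16 of 37 cases. Ccl2, which attracts monocytes, had signals of 5.34 and 5.57 (percentile 95.8) and Ccl7, another monocyte attractant, had 3.83 and 3.72. Cxcl12, the ligand of Cxcr4 and Ackr3, had 3.63 and 3.73 (percentile 90.5). Cxcl10, which interferons induce, was dim at -3.16 and -2.65. Cxcl11, induced in the same way, had a mean of 7.89 by 1 probe and 2.71 by the other. Ccl20, Cxcl2, Cxcl3 and Cxcl5 were silent.

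Of 29 nucleic acid sensors and adaptors, 21 were above background, among them the RNA sensor Rigi (0.09 and 0.51), its adaptor Mavs (2.30 and 2.45), Sting1 of the DNA-sensing pathway (3.37 and 3.57), Traf3 (2.43 and 2.59) and Irak2 (4.79 and 4.67). Aim2, Nod2 and Casp1 were silent. Of 20 IRF, STAT and JAK genes, 16 were above background. The kinase Jak1 had 4.06 and 4.21 and the transcription factor Irf3, which acts downstream of the sensors, had 3.50 and 3.42. Of the factors that act downstream of the interferon receptors, Irf9 had -0.59 and -0.15 and Stat2 had -0.83 and -0.56.

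Interferon-stimulated genes were spread over the whole scale before CSF-1. Of 50 members, 32 were above background, 9 in between and 9 silent, at a median percentile of 47.1. Trim25, a ubiquitin ligase, had signals of 4.47 and 4.49, and Oas1b had a mean of 5.12 by 1 probe and -1.64 by the other. Isg15, a ubiquitin-like modifier, had -0.55 and 0.13 (percentile 68.4). Ifit1, which binds foreign RNA, was at the limit of detection at -4.33 and -4.56 (percentile 33.9), and Oas1a, a 2'-5' oligoadenylate synthetase, had -3.60 and -2.10. Mx1, an antiviral GTPase, was silent at -7.02 and -6.94 (percentile 1.03).

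This list differed between the 2 unstimulated arrays mostly in 1 direction. Of its 41 members above background on at least 1 of them, 34 (82.9%) were higher on array 2, beside 40.2% of all 25702 such genes. Other lists leaned the same way, with 14 of 16 IRF, STAT and JAK genes (87.5%), 81.8% of TGF-beta family receptors and 77.8% of fibrillar collagens higher on array 2, and the genes of other organs leaned the opposite way, at 13.0%. The median difference was 0.37 for the interferon-stimulated genes, 0.16 for the IRF, STAT and JAK genes and -0.07 for all. More than 1 log2 unit higher on array 2 were 10 members (24.4%, beside 2.26% of all genes), and 0 were as much lower. They were Ifi44, Gbp3, Ifi203, Usp18, Oas1a, Igtp, Oasl2, Parp14, Irgm2 and Mx2. Of these, Usp18, Oas1a, Igtp and Oasl2 were above background on both arrays. The other members were above it on 1 array only and entered the count through that array alone. The size of their difference therefore rests on a signal not above background on the other array. Igtp went from -3.11 to -1.45, Oasl2 from -4.57 to -2.49 and Mx2 from -6.70 to -0.93. With 1 pair of arrays no test was made, and the members are not independent of each other.

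**Figure D3:**
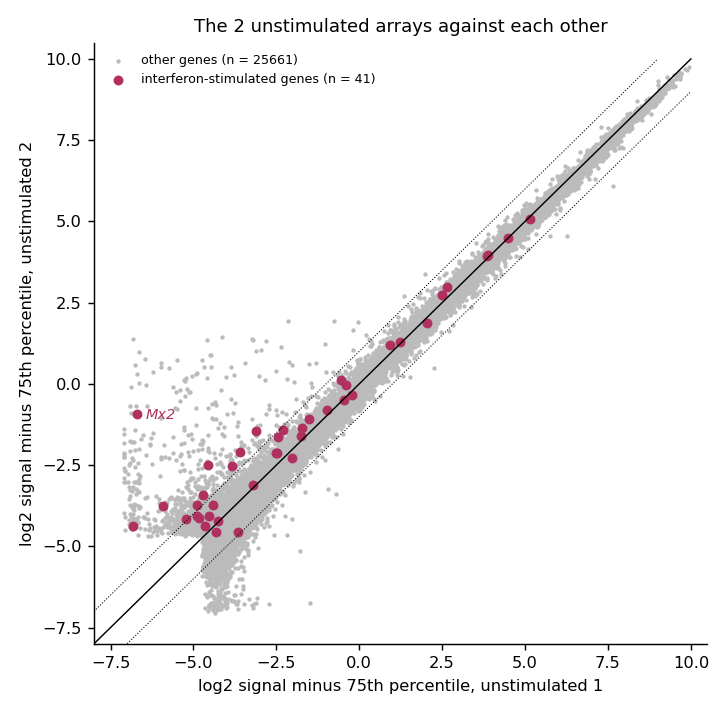
Signal of 25702 genes above background on at least 1 unstimulated array, array 2 (vertical axis) against array 1 (horizontal axis), both as log2 signal minus the array's 75th percentile; the solid line marks equal signal and the dotted lines a difference of 1. Interferon-stimulated genes (large points) lie above the solid line in 34 of 41 cases, with Mx2 farthest at -6.70 and -0.93.

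The letters GAAANNGAAA, the core of the interferon-stimulated response element, were looked for on both strands in the same 250 bases. Of 40 list members with a promoter in the table, 19 (47.5%) held them, beside 2.98% of all 32851 promoters. Here too a list gene counted if any of its promoters held the letters, which can raise the share of the list. Within 100 bases, 15 of 40 and 0.983% of all promoters did. By class, the letters stood before 9 of 25 members above background, 5 of 7 in between and 3 of 5 silent members. They were thus present on both sides of the detection limit. The other 3 members had no usable probe, and 2 of these held the letters. The promoters of Ifit1 (chr19:34640639-34640888, plus strand) and Isg15 (chr4:156200819-156201068, minus strand), both above background, are shown 5′ to 3′ on the strand of the gene, ending 1 base before the start site, with the matches or their complement TTTCNNTTTC in capitals. Isg15 has 3 overlapping matches.
Ifit1: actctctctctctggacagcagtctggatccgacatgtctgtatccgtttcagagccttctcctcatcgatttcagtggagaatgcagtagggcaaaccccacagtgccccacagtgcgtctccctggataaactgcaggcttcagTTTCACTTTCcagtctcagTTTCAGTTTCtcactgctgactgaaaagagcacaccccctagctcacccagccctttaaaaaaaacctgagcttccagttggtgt
Isg15: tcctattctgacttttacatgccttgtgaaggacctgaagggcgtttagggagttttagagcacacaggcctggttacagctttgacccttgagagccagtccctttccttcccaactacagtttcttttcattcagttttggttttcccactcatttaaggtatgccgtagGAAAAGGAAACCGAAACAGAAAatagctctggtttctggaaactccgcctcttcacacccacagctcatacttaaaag

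Genes of MHC class I presentation were above background in 16 of 21 cases, but the peptide transporter was not. B2m, the light chain of class I molecules, had signals of 4.84 and 5.13 (percentile 94.7), and the heavy chain genes H2-K1 and H2-D1 had -1.56 and -1.49 and -1.61 and -1.22. The class I heavy chain genes are close paralogs, so their probes may share signal. The chaperones Calr and Canx had 5.63 and 5.64 and 4.78 and 4.95. Tap1 and Tap2, the subunits of the transporter, were silent at -5.81 and -5.95 and at -4.82 and -5.45, and the immunoproteasome subunits Psmb8 and Psmb9 lay in between.

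Of 10 MHC class II genes, 6 were above background, none beyond percentile 51.5. H2-Aa and H2-Ab1, which encode a class II molecule, were silent at -6.76 and -6.71 and at -5.24 and -4.96. The regulator Ciita and the invariant chain Cd74 were dim at -3.16 and -3.38 and at -3.04 and -3.60. The brightest class II genes were H2-DMb1 (-3.06 and -2.21), H2-Ob (-2.75 and -2.93) and H2-DMa (-2.88 and -2.95).

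Complement genes were above background in 21 of 34 cases. The central component C3 had 2.55 and 2.26 (percentile 84.2), and C1s1, a protease of the classical pathway, had -2.85 and -2.38. Cr1l had 3.24 and 3.22 and C8g had 0.55 and 0.44, whereas Cfb, C5ar1 and Cd55 were silent. The dimmer probes of C3 and C8g had means of -2.225 and -2.1. Of 31 checkpoint and co-stimulatory ligands, 15 were above background. Cd47, which inhibits phagocytosis, had 3.72 and 3.56 (percentile 90.3), Raet1e, a ligand of NK cells, had 2.16 and 2.19 and the galectin Lgals9 had 1.33 and 1.38. Cd274, encoding PD-L1, and the co-stimulator Cd80 were dim at -3.56 and -3.12 and at -3.19 and -3.57, and Cd86 was silent at -7.08 and -7.01.

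The stimulated arrays show which of these genes left their class once CSF-1 was added. In a limma fit of 24643 genes over all 6 arrays, called at a Benjamini-Hochberg adjusted p under 0.05 and a change of at least 2-fold, 1520 genes differed at 24 h and 1331 at 48 h. Leaving out unstimulated replicate 2 or 24 h replicate 2 gave 908 and 874 genes at 24 h, and leaving out unstimulated replicate 1 gave 849 at 48 h. Both comparisons share the 2 unstimulated arrays. Among all silent genes, 1.45% were called higher at both times; among all genes above background, 2.19% were called higher and 0.964% lower at both. The median change over all genes tested was 0.04 at 24 h and -0.04 at 48 h.

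Of 85 silent lineage genes, 1 was called higher at both times, as were 6 of 87 silent receptor genes, 3 of 58 silent matrix genes and 16 of 97 silent immune genes. A silent gene was tested only if detected on both arrays of 1 stimulated group or more, and untested genes count here as not called. Among genes above background, 5 of 127 lineage genes, 18 of 216 receptor genes, 18 of 153 matrix genes and 54 of 163 immune genes were called higher, and 9, 5, 15 and 3 of them lower. Csf1r, with signals of 4.88 and 5.13 unstimulated, 5.12 and 5.34 after 24 h, and 4.96 and 4.90 after 48 h, was called at neither time. Of the macrophage genes, 0 of 12 silent members were called higher at both times, near the 1.45% of all silent genes, although Ctss, encoding cathepsin S, rose at least 4.0-fold at 48 h. Of the 16 detected macrophage genes 2 were called higher at both times, the mannose receptor gene Mrc1, 19.3-fold at 24 h and 11.8-fold at 48 h, and the receptor kinase gene Mertk, 2.4-fold and 2.52-fold. None of the 14 detected or 15 silent simple epithelial genes was called at both times in either direction. Only 17 of the 30 members were tested, so most of the silent ones could not be called. Of all genes above background, 2.19% were called higher and 0.964% lower at both times. Krt8 rose at 48 h, at 0.74 ± 0.25 (SE, log2, adjusted p = 0.112) at 24 h and 1.98 ± 0.25 (adjusted p = 0.0106) at 48 h.

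Most interferon-stimulated genes rose, whatever their level before. In a test limited to genes above background on all 6 arrays, 26 of 32 members were called higher at both times. In the main test, silent members entered only through stimulated arrays on which they were detected. The median change over the members tested there was 3.25 at 24 h and 4.15 at 48 h, or 3.12 and 3.81 with silent genes at their lower bound. Of 48 members tested, 39 were called higher at both times, beside 2.91% of all genes tested. They included 7 of the 9 silent members and 25 of the 32 above background on the unstimulated arrays. Without 24 h replicate 2 the count was 25. Mx1, silent before, had signals of -7.02 and -6.94 unstimulated, -2.54 and -2.30 after 24 h, and -0.58 and 0.73 after 48 h, at least 4.95-fold higher at 24 h and at least 27.9-fold higher at 48 h when its unstimulated level is set to the detection limit of each array. Ifit1 had -4.33 and -4.56 unstimulated, 1.22 and 1.35 after 24 h, and 2.45 and 3.45 after 48 h, and its change was 5.73 ± 0.33 (SE, log2, adjusted p = 0.00181) at 24 h and 7.39 ± 0.33 (adjusted p = 0.00102) at 48 h. Isg15 changed by 4.76 ± 0.33 (SE, log2, adjusted p = 0.0028) at 24 h and 5.93 ± 0.33 (adjusted p = 0.00139) at 48 h. Mx2, whose 2 unstimulated signals lay far apart, was not called, at 3.36 ± 1.78 (SE, log2, adjusted p = 0.27) at 24 h and 4.41 ± 1.78 (adjusted p = 0.166) at 48 h. Irf9 and Stat2 rose by 6.62-fold and 6.82-fold at 24 h. Both silent subunits of the peptide transporter rose, Tap1 at least 3.25-fold and Tap2 at least 6.3-fold at 24 h. In the MHC class I list, 10 of 21 members were called higher at both times, and 5 without unstimulated replicate 2 or 6 without 24 h replicate 2.

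The silent genes named next are, within each theme (lineage, receptor, matrix and immune genes), up to 3 with the largest fitted rise over both times among those above background on all 4 stimulated arrays, so a gene of one theme that is not named can have risen more than a named gene of another. Their rises are given as lower bounds. Of the interferon-stimulated genes, Trim30a had signals of -6.91 and -6.51 unstimulated, -0.89 and -0.45 after 24 h, and -0.23 and 0.52 after 48 h, at least 16.7-fold and 29.2-fold higher at 24 h and 48 h, and Oas2 rose at least 24.4-fold and 49.8-fold. The interleukin-6 gene Il6 had -6.86 and -5.44 unstimulated, -0.71 and -0.47 after 24 h, and -0.28 and 0.80 after 48 h, at least 17.6-fold and 31.7-fold higher. Ackr3, the chemokine receptor, rose at least 7.11-fold and 5.64-fold, Tlr3 at least 3.13-fold and 7.21-fold, and the integrin subunit Itgb3 at least 14.6-fold and 6.66-fold. Of matrix genes, Col17a1, a collagen of hemidesmosomes, rose at least 5.28-fold and 2.12-fold, and the collagenase Mmp1a at least 3.78-fold and 4.22-fold. Of all silent genes, 1.5% had a probe above background on each of those arrays, and the members that did were 2 of 85 lineage, 5 of 87 receptor, 4 of 58 matrix and 10 of 97 immune genes.

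Of the genes above background, the 3 with the largest fitted fall over both times within each theme are given here, so a gene of one theme that is not named can have fallen more than a named gene of another. In the matrix theme, for example, Omd, which encodes osteomodulin, was 10.2-fold and 4.3-fold lower. Acta2 had signals of 3.88 and 4.61 unstimulated, 1.42 and 2.55 after 24 h, and 0.48 and 1.05 after 48 h, and changed by -2.26 ± 0.46 (SE, log2, adjusted p = 0.0345) at 24 h and -3.48 ± 0.46 (adjusted p = 0.012) at 48 h. Calponin 1 (Cnn1) was lower by 8.0-fold at 24 h and by 8.55-fold at 48 h, and P-cadherin (Cdh3) by 12.7-fold and 7.94-fold. In the smooth muscle list, 4 of 15 detected members were called lower at both times and 0 higher (0.905% of all genes tested were called lower). The lymphatic growth factor Vegfd changed by -3.13 ± 0.12 (SE, log2, adjusted p = 0.00102) at 24 h and -2.32 ± 0.12 (adjusted p = 0.00136) at 48 h, and the orphan nuclear receptor Nr2f2 and Pdgfrb were 3.78-fold and 3.76-fold lower at 24 h. Of matrix genes, osteoglycin (Ogn) had 0.38 and 0.73 unstimulated, -3.94 and -2.88 after 24 h, and -2.54 and -3.08 after 48 h. Timp3 was 12.9-fold and 7.13-fold lower, and Fbln5, a protein of elastic fibres, was 5.06-fold and 8.8-fold lower. The dimmer probe of Fbln5 had an unstimulated mean of -5.84, above background on neither array. Fibrillar collagens had a median change of -1.07 at 24 h and -0.93 at 48 h, with 1 of 8 called lower at both times, Col1a2, which changed by -1.44 ± 0.20 (SE, log2, adjusted p = 0.0133) at 24 h and -1.23 ± 0.20 (adjusted p = 0.0208) at 48 h. Of immune genes, Cxcl12 had 3.63 and 3.73 unstimulated, 0.39 and 1.45 after 24 h, and 0.74 and 1.25 after 48 h, the adhesion molecule Vcam1 was 4.07-fold and 2.53-fold lower, and the chemokine Ccl9 was 3.22-fold and 2.87-fold lower. In each of these genes all 4 stimulated arrays lay below both unstimulated arrays. Of the 20 genes in the plot of signals before and after CSF-1, 10 lost the call at a time point when 1 array was left out, namely Tlr3, Itgb3, Mmp1a, Acta2, Cdh3, Pdgfrb, Ogn, Timp3, Cxcl12 and Vcam1.

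**Figure D4:**
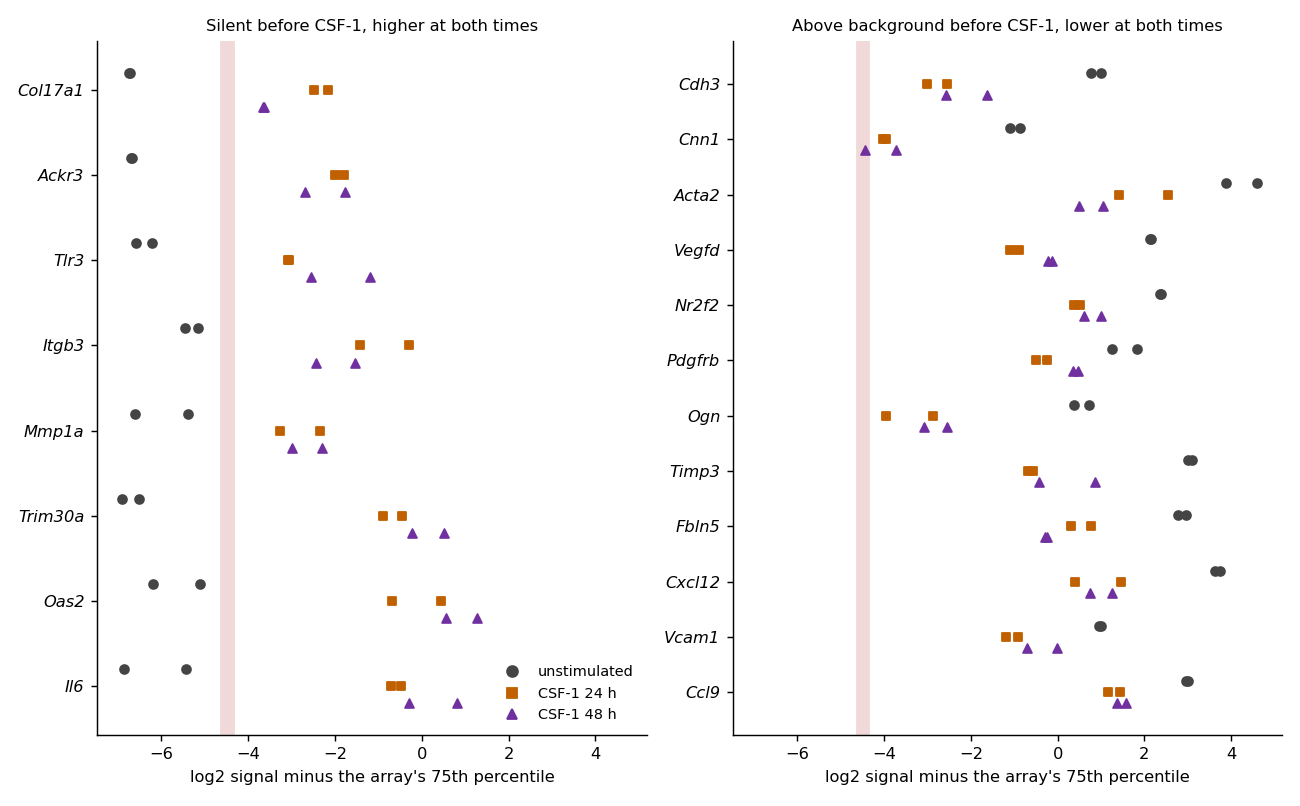
Signal on each of the 6 arrays (horizontal axis, log2 signal minus the array's 75th percentile) of the silent genes that were higher at both times after CSF-1 (left) and of the genes above background that were lower at both times (right); circles are unstimulated arrays, squares 24 h and triangles 48 h, and the shaded band is the range in which both detection classes occur. On the left all unstimulated points lie left of the band, and Oas2 reaches 1.26 at 48 h.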

How the data were processed

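Members and gene lists were chosen with earlier results of these data known. For each array the authors deposited Feature Extraction 11.0.1 output, in which the processed spot intensity is background-subtracted and detrended but not normalized between arrays, with mean and local background intensities and detection flags. A table of log2 values, also deposited by the authors, was used as an alternative only, and its normalization is not given in the sources used here. Probe annotation is on mm9. Cy3-labelled RNA was hybridised to 1 array per sample, and the number of arrays limits the precision.

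Control and outlier spots were left out, spots of a probe averaged, and log2 signal minus the array's 75th percentile taken. The brightest probe stood for a gene, by the mean over the 2 unstimulated arrays for detection and over all 6 for the test, which took genes detected on each array of 1 group or more. Names followed RefSeq by symbol (19515), accession (2146) or synonym (366), and 14093 kept the array's name. Of the listed genes, 14 had no usable probe.

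Groups were compared with limma 3.58.1 in R 4.3.3 (lmFit and eBayes, 2-sided, all 6 arrays, 3 residual and 2.39 prior degrees of freedom) and the code was tested on simulated data. Files were read with the R package data.table (version 1.17.8), Python 3.11.15, pandas 2.3.3 and numpy 2.4.6, and plots drawn with matplotlib 3.10.9. A fold against a silent group was bounded by the lowest signal well above background on each array, or the probe's own signal where higher. Genes were named if defining for a list, among the 3 of highest percentile in it, among the 10 brightest, or among the 3 of each theme that were silent and rose most, or above background and fell most, at both times. Others were named after their values were seen, and some genes that meet the rule are not reported here. Replicate numbers were not taken as pairing the arrays, since the correlations of their deviations were 0.128, 0.0941 and 0.199. Alternatives covered detection flags, the probe chosen, background correction, scaling, filters, slide, replicate block, the methods' t-test and each array left out. Promoters came from RefSeq, build GRCm38.p6.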

Additional observations from a re-analysis of the deposited data

Results flagged for a closer look

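Of 308 negative control spots, which carry no mouse sequence, 7 were well above background on unstimulated array 2, beside 0 on unstimulated array 1 and 0 to 4 on the stimulated arrays. These spots entered no comparison, and the signal stands above what the other arrays show. Whether they bear on the genes that were brighter on unstimulated array 2 was not tested.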

How the results depend on the processing

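The looser flag for a signal above background reduced the silent genes from 10380 to 2558 and raised those above background from 23126 to 30810 of 36120. A limit at the 99th percentile of the negative control spots of each array left 4723 silent genes and 19140 above background, with 12257 in between. With the looser flag, 24 of 30 simple epithelial, 32 of 36 macrophage and 33 of 36 genes of other organs counted as above background, and with the limit from control spots 8 simple epithelial genes and 10 genes of other organs did. The median percentile of the named genes was 82.0, 79.1 with the mean of all probes of a gene and 79.6 when ranked among genes above background alone. With the mean of all probes, 23 of 215 named genes moved by more than 10 percentiles, Trp63 by 44.4.

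Genes called at 24 h numbered 1520, 866 with normexp background correction, and 874 to 1474 when 1 array was left out. At 48 h they numbered 1331, 869 with normexp, 810 without the filter on dim probes, and 849 to 1214 when 1 array was left out. The methods' t-test, taken here with the same 2-fold limit, called 1352 and 1161 genes unadjusted and 0 at either time after Benjamini-Hochberg adjustment, with 5402 and 5484 genes at an unadjusted p under 0.05. Genes called higher made up 73.8% of the calls at 24 h, 62.8% with quantile normalization and 43.6% with median centring. At 48 h they made up 73.1%, and 61.8% with median centring, which moved the median change of all genes to -0.26 and -0.14. The fit with a replicate block called 1550 and 1397 genes. A block for the slide amounts to leaving out 24 h replicate 1, the only array on slide 2. Interferon-stimulated genes called higher at both times were 39, and 30 without that array. The changes of the genes plotted before and after CSF-1, chosen because they were called at both times, were recomputed under the alternatives. Of these recomputed changes, 478 kept their call, 64 lost it and 0 reversed. Other named genes are not in this count.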
